A study of Homo sapiens with 4 samples.

Results

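The 48 genes described here are classical interferon-stimulated genes, that is, genes whose transcription rises when a cell meets an interferon. They were chosen by name, and a probe was assigned to them when its RefSeq accession led to one of the 48 symbols. They are 48 of the 25122 genes with a symbol on the array, and they hold 69 of its 35080 probes with a symbol. The 4 samples were total RNA from PC3 and DU145, both established cell lines of androgen-independent prostate cancer, each carrying a luciferase shRNA (PC3-shC and DU145-shC) or an shRNA against ESS2 (PC3-shESS2 and DU145-shESS2). The labels give lentiviral delivery, whereas the study's methods describe, for PC3, transfected plasmids and selection with puromycin, and the sources used here do not settle which was used. ESS2 is a nuclear protein studied as a coregulator of transcription, and the series asked what its depletion does to gene expression in these cells. Each condition was measured on 1 one-colour Agilent array, so no comparison within a line has a replicate or a p-value, and each shRNA line was sampled once.

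Type I and type III interferons are secreted proteins that act on cell-surface receptors. The receptors activate the kinases JAK1 and TYK2, which phosphorylate STAT proteins, and these join IRF9 to form a complex that binds the interferon-stimulated response element in the promoters of target genes. Many of the products block a step of virus replication, and tumour cell lines often keep a part of this programme on without added interferon.

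The response element is built around a pair of GAAA letters held apart by any 2 bases. This core, searched on both strands, was found in the promoter (250 bases before to 50 after the start of the gene, RefSeq, GRCh38.p14) of 21 of the 39 members that have one in the table, which is 53.8%, and in 996 of all 27305 promoters, which is 3.65%. Windows around the match nearest the start are printed for 4 members that were lower and 4 that were not lower after knockdown in PC3, since the same core stands in both kinds. Each is given 5′ to 3′ on the strand of the gene, with the matches in capitals; a match on the opposite strand reads TTTC, 2 bases and TTTC.
OAS3 (chr12:112938437-112938473, plus strand): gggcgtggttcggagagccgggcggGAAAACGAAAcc
IFI6 (chr1:27672251-27672310, minus strand): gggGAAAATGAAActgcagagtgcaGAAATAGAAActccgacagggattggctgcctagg
IFI44L (chr1:78620350-78620409, plus strand): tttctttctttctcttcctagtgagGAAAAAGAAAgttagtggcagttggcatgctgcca
PLSCR1 (chr3:146544652-146544711, minus strand): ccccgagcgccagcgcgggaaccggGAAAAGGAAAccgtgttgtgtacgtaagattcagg
ISG15 (chr1:1013365-1013424, plus strand): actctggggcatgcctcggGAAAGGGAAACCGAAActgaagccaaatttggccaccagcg
IFI44 (chr1:78649746-78649788, plus strand): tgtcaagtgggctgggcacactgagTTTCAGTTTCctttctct
DDX60 (chr4:168318771-168318830, minus strand): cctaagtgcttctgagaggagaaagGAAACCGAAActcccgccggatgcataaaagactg
HERC5 (chr4:88457020-88457079, plus strand): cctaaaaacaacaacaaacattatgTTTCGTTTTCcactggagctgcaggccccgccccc
In the whole promoter, IFI6 and HERC5 each held 3 matches, and OAS3, IFI44L, DDX60 and ISG15 each held a pair. In ISG15 and in HERC5 a pair of matches overlapped. The letters are a description of these windows and no evidence of binding.

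Levels are given as the processed signal of the array, a background-subtracted fluorescence in arbitrary units, in the order PC3-shC, PC3-shESS2, DU145-shC and DU145-shESS2. Log2 ratios were taken after the 75th percentile of each array was set equal, a ratio with a value that was not well above background is given as a bound, and levels of different genes are not compared. On the 4 arrays, 50.8% to 52.6% of the spots were well above background and none was saturated. The probes printed in 10 spots gave a median SD of 0.079 for a log2 ratio of single spots in PC3 and in DU145, which covers the array surface and not the cells. ESS2 itself read 133, 53.6, 85.7 and 17.3, a log2 ratio of -1.45 in PC3 and -2.35 in DU145, in the direction of the labels. The epithelial markers EPCAM, KRT8, KRT18 and CDH1 were well above background on all 4 arrays, whereas the luminal marker KLK3 was on none. EPCAM read 30700, 26100, 2120 and 357, a log2 ratio of -2.61 on knockdown in DU145, and between the control arrays EPCAM and CDH1 were 11.7-fold and 38.9-fold higher in PC3. Of the leukocyte markers, PTPRC and CD14 were well above background on all 4 arrays and CD3E on none, and CD14 read 221, 54.7, 172 and 274. Of the endothelial markers, PECAM1 read 338 and 16.4 in PC3, a log2 ratio of -4.51, and was not well above background in DU145, while VWF read 24.4, 30.4, 29.1 and 31.8. The part of these markers in the results was not tested. The arrays of each line lay on a slide of their own, so line and slide cannot be told apart, and a change in the share of cells that express a gene cannot be told apart from a change per cell.

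The first comparison asked how high these genes stood in the control cells of each line. Of the 47 members compared, 35 were well above background on both control arrays. All 35 had a higher value in PC3-shC than in DU145-shC, although TDRD7 turned with quantile normalization and with the authors' scaling, ADAR with the former and TRIM5 with the latter. The difference reached 2-fold in 27 of them (77.1%) and 10-fold in 10, and none was higher in DU145 by 2-fold. Among the 14961 genes measured on both control arrays, 8407 were higher in PC3, 254 of them by 10-fold or more. By 2-fold or more, 21.7% of the 14961 were higher in PC3 and 16.1% were lower. The median log2 ratio was 2.26 over the 35 members and 0.16 over these genes. The probes of some members differed, CMTR1 giving 1.24 with the probe used and -0.77 with the other, and HERC6 giving 2.54 and 0.02. The other 12 members entered the comparison through PC3 alone, which fixed their direction, and all are bounds. With these included, 39 of the 47 members (83.0%) were past 2-fold and the median log2 ratio was 2.64, against 22.1% of all 17475 genes higher in PC3, 19.9% lower and a median of 0.12. PC3-shC had 47 members well above background and DU145-shC had 35. The 12 bounds, which were not well above background on either DU145 array, were OAS1, OAS2, UBA7, TRIM22, SAMD9, SAMD9L, IFI16, IFI44L, GBP1, XAF1, CMPK2 and RTP4. EPSTI1 was not well above background on any array and gave no ratio. The 8 members within 2-fold of each other were ADAR, HERC5, USP18, TRIM5, TRIM25, PML, APOL1 and TDRD7.

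**Figure D1:**
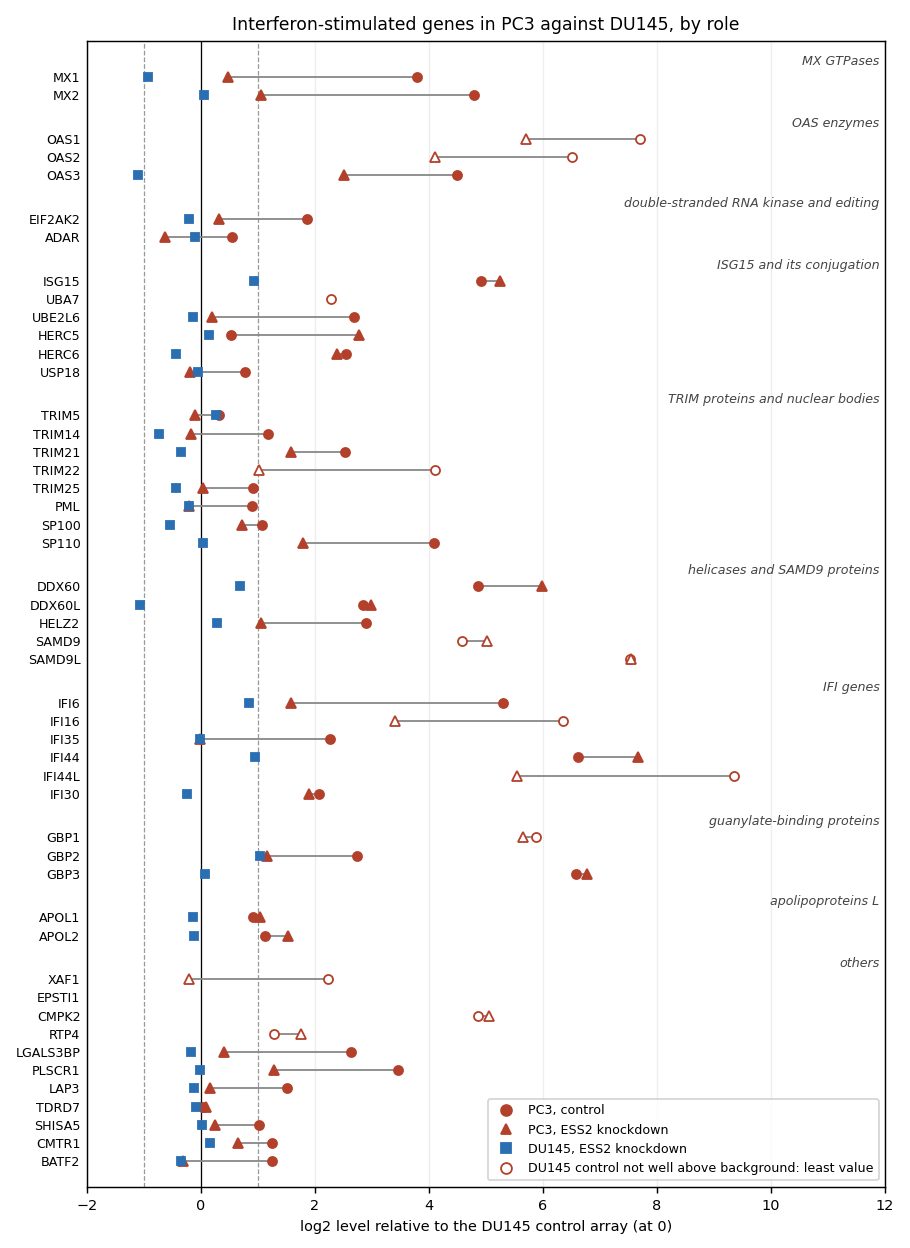
Level of each member relative to the DU145-shC array, which lies at 0 (x axis, log2), with members in rows by role; circles are PC3-shC, triangles PC3-shESS2 and squares DU145-shESS2, 1 array each. Open symbols are least values for members not well above background in DU145-shC, no triangle is drawn for UBA7, and the circles of the 35 members measured on both control arrays lie to the right of 0, 27 of them past the dashed line at 2-fold.

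The second comparison asked what the knockdown of ESS2 did to these genes in PC3. Of the 47 members compared, 24 (51.1%) were lower in PC3-shESS2 by 2-fold or more, 3 (6.38%) were higher by 2-fold or more, and 20 lay within 2-fold. Over all 16764 genes compared in PC3, 3.87% were lower and 3.88% were higher by 2-fold or more. The median log2 ratio of the members was -1.10, against -0.06 for all genes. Of the 24 members, 23 were measured on both arrays, and UBA7 is a bound. Irrespective of size, 34 members were lower (72.3%, against 55.7% of all genes) and 13 were higher. Scaling to the median turned SAMD9L and TDRD7, and the mean of the probes turned SAMD9L and HERC6, all of them close to 0.

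**Figure D2:**
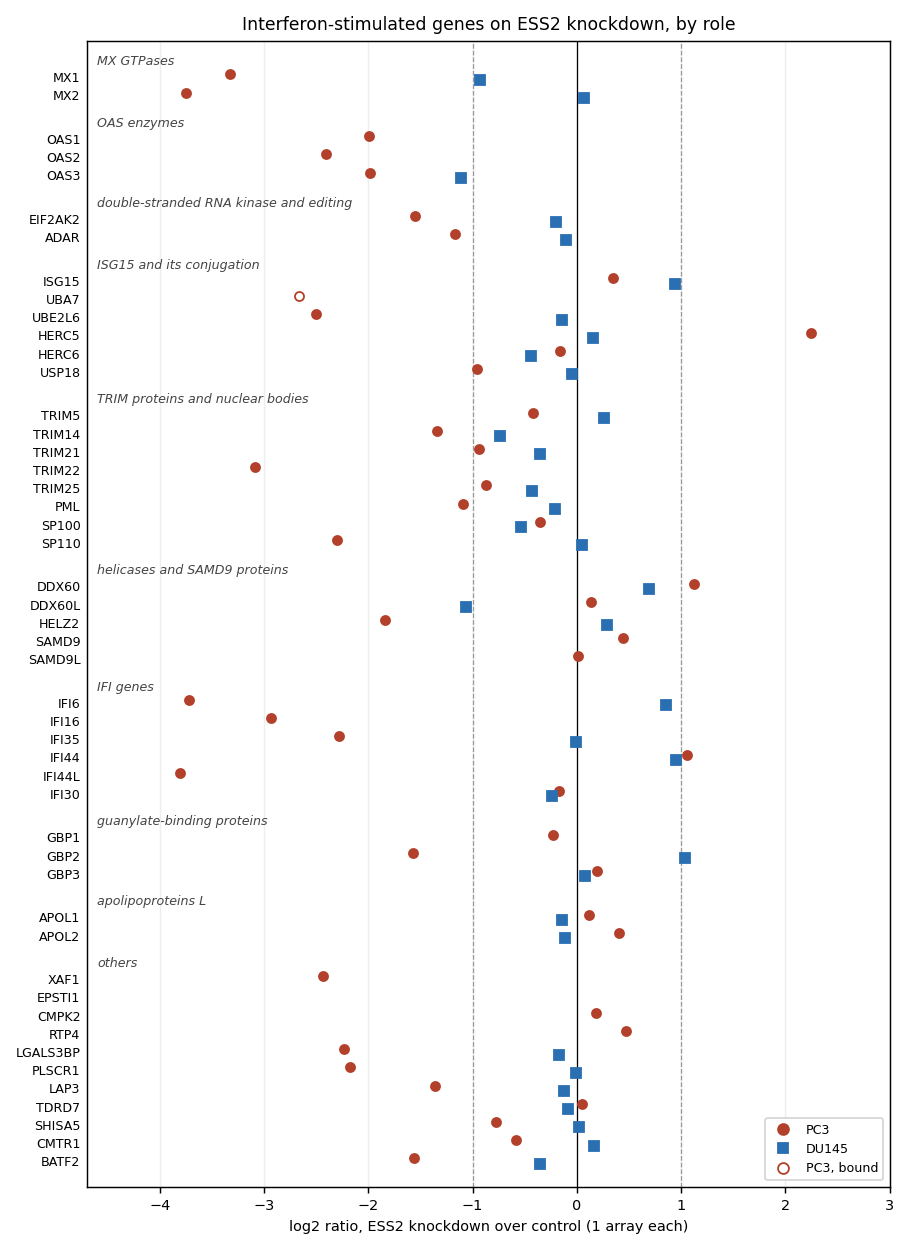
Log2 ratio of ESS2 knockdown over control (x axis, 1 array each) for each member, in rows by role; circles are PC3, squares DU145 and the open circle a bound. Dashed lines mark 2-fold; 24 circles lie at or beyond the left one and 3 beyond the right one, while 32 of the 35 squares lie between them.

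The MX proteins are large GTPases that trap viral nucleocapsids. MX1 read 5190, 572, 301 and 163, a log2 ratio of -3.32 in PC3 and -0.93 in DU145. MX2 read 600, 49.2, 17.4 and 18.7, with -3.75 in PC3 and 0.06 in DU145. The pair was thus lower by 10.0-fold and 13.4-fold in PC3-shESS2, although MX2 came to -2.70 with normexp, another background correction.

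The OAS enzymes make 2′-5′-linked oligoadenylates, which act as second messengers of the antiviral response. OAS1 read 2240 and 619 in PC3, 3.99-fold lower, and was not well above background in DU145. OAS2 read 1270 and 265, a log2 ratio of -2.40, and its 3 probes gave -2.91 to -2.40. OAS3 read 2730, 760, 97.9 and 46.7, with -1.99 in PC3 and -1.11 in DU145, and it was the only member lower by 2-fold or more in both lines. With the probes used, all 3 enzymes were lower in PC3 by 3.96-fold to 5.28-fold, and the other, dimmer OAS3 probe gave 2.91-fold. The double-stranded RNA kinase EIF2AK2 (PKR), which halts translation, read 8060, 3030, 1780 and 1590, and the log2 ratio was -1.55 in PC3 and -0.20 in DU145. ADAR, which edits adenosine to inosine in double-stranded RNA, read 12700, 6210, 7000 and 6680, with -1.17 and -0.11.

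ISG15 is a ubiquitin-like protein that is coupled to other proteins by an activating enzyme (UBA7), a conjugating enzyme (UBE2L6) and the ligase HERC5, and is removed by USP18. ISG15 read 102000, 143000, 2740 and 5400, a log2 ratio of 0.35 in PC3 and 0.94 in DU145, so it was not lower in either line. UBA7 read 52.0 in PC3-shC and 5.85, not well above background, in PC3-shESS2, at least 6.36-fold lower, but with normexp its log2 ratio was -0.77, within 2-fold. UBE2L6 read 3130, 610, 391 and 365, with -2.50 in PC3 and -0.14 in DU145. The conjugating enzyme was therefore lower in PC3 while the ligase went the other way. HERC5 read 367, 1920, 205 and 234, a log2 ratio of 2.25 in PC3 and 0.15 in DU145, the highest ratio among the members in PC3. USP18 read 1810, 1030, 856 and 854, a log2 ratio of -0.95 in PC3 just inside 2-fold. HERC6, a related protein whose gene lies beside HERC5, read 170, 168, 23.6 and 17.9, and its pair of probes gave -0.16 and 0.18 in PC3. In DU145 they gave -0.44 and -1.07, so that the other probe alone was past 2-fold there.

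All 8 members among the TRIM proteins and nuclear body proteins were lower in PC3-shESS2, and 4 of them by 2-fold or more. TRIM22, a restriction factor of retroviruses, read 184 and 23.9 in PC3, a log2 ratio of -3.09 (-1.64 with normexp), and was not well above background in DU145. SP110, a nuclear body protein, read 3160, 706, 149 and 158, with -2.30 in PC3 and 0.04 in DU145. TRIM14, an adaptor of the mitochondrial antiviral pathway, read 1300, 564, 463 and 285, with -1.35 and -0.74, and its 4 probes ran from -1.38 to -1.02 in PC3. PML, the scaffold of the nuclear bodies that carry its name, read 4030, 2080, 1750 and 1560, with -1.10 and -0.21. The other 4 lay within 2-fold in PC3. They were TRIM21, a cytosolic antibody receptor (-0.94), TRIM25, a ubiquitin ligase of the RIG-I pathway (-0.88), TRIM5, which acts on retroviral capsids (-0.42), and SP100, a partner of PML in nuclear bodies (-0.35).

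The helicases and the SAMD9 proteins were divided. HELZ2, a helicase that also acts as a nuclear receptor coactivator, read 13700, 4230, 1480 and 1860, a log2 ratio of -1.84 in PC3 and 0.29 in DU145. A pair of dim HELZ2 probes gave bounds of -0.99 and -0.85 in PC3, and the mean over the probes was -1.23. DDX60, a helicase linked to RNA sensing, read 983, 2360, 27.4 and 45.5, with 1.12 in PC3 and 0.69 in DU145. Its paralogue DDX60L read 544, 658, 60.9 and 29.9, with 0.13 in PC3 and -1.07 in DU145, so the paralogues differed in each line. SAMD9 read 256 and 384 in PC3, and SAMD9L, a growth inhibitor of the same family, read 1980 and 2200, within 2-fold in both cases.

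The genes named IFI held both the member with the lowest ratio and a member past 2-fold upward. IFI44L read 6990, 551, 2.23 and 2.12, the DU145 values not being well above background, with a log2 ratio of -3.81 in PC3. IFI6, a mitochondrial and endoplasmic reticulum protein that opposes apoptosis and flavivirus replication, read 18600, 1560, 382 and 708, with -3.72 in PC3 and 0.85 in DU145. IFI16, a DNA sensor, read 875 and 126 in PC3, a log2 ratio of -2.94. IFI35, a partner of NMI, read 1860, 422, 312 and 318, with -2.28 in PC3 and -0.01 in DU145. IFI44, a paralogue of IFI44L, read 3020, 6900, 24.8 and 49.3, with 1.05 in PC3 and 0.95 in DU145. IFI30, a lysosomal thiol reductase of antigen processing, read 7270, 7110, 1390 and 1210, within 2-fold in both lines.

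The guanylate-binding proteins are GTPases that attack intracellular pathogens. GBP2 read 511, 189, 61.5 and 130, a log2 ratio of -1.58 in PC3 and 1.04 in DU145. GBP1 read 630 and 594 in PC3, and GBP3 read 1560, 1960, 13.1 and 14.2, so that only GBP2 of the 3 was past 2-fold in PC3. The apolipoproteins L, of which APOL1 lyses trypanosomes, were within 2-fold on knockdown in both lines, with log2 ratios of 0.11 (APOL1) and 0.41 (APOL2) in PC3.

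Of the remaining 10 members compared in PC3, 5 were lower by 2-fold or more. XAF1, a pro-apoptotic antagonist of XIAP, read 50.6 and 10.3, a log2 ratio of -2.44 between dim values that came to -1.28 with the mean of its probes and to -0.82 with normexp. LGALS3BP, a secreted glycoprotein that binds galectin-3, read 3010, 704, 389 and 355, with -2.24 in PC3 and -0.17 in DU145. PLSCR1, a phospholipid scramblase, read 5360, 1310, 393 and 401, with -2.17 and -0.01. LGALS3BP and PLSCR1 were thus lower by 4-fold or more in PC3. LAP3, a leucine aminopeptidase, read 3090, 1330, 873 and 822, with -1.36 and -0.13. BATF2, a basic leucine zipper transcription factor, read 214, 79.9, 72.3 and 58.3, with -1.56 and -0.35. Among the other 5 were SHISA5, a pro-apoptotic membrane protein (-0.77), CMTR1, an mRNA cap methyltransferase (-0.59), and TDRD7, a tudor domain protein (0.05). The rest were CMPK2, a mitochondrial nucleotide kinase (0.19), and RTP4, a receptor transporter protein (0.47). The 3 probes of SHISA5 ran from -1.24 to -0.77 in PC3, and 1 of them alone was past 2-fold. TDRD7 was printed in 10 spots per array, which had means of 1274 ± 52.7 in PC3-shC and 1452 ± 49.8 in PC3-shESS2 (SD over spots, n = 10). Before scaling, the 75th percentile of the array went from 263 to 290 between the same arrays.

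**Figure D3:**
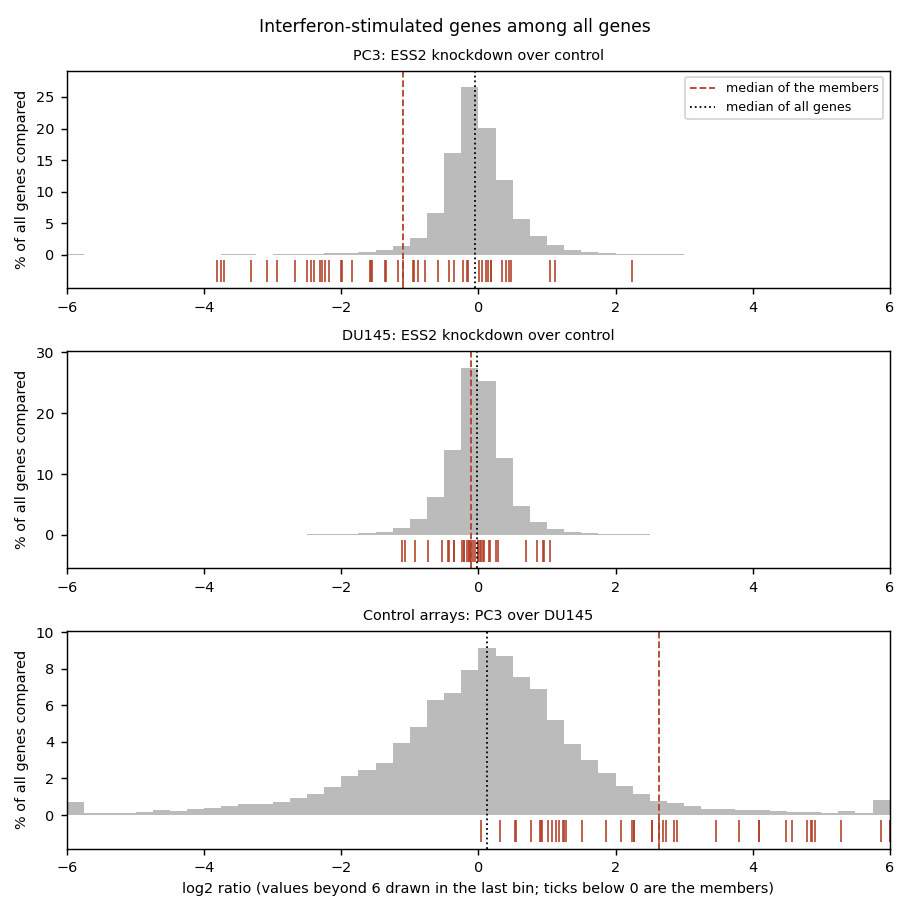
Distribution of log2 ratios over all genes compared (grey bars, y axis in percent of genes) with the members as ticks below the bars, for the knockdown in PC3, the knockdown in DU145 and the control arrays, 1 array per condition. The dashed line is the median of the members and the dotted line that of all genes, at -1.10 and -0.06 in PC3, -0.11 and -0.02 in DU145, and 2.64 and 0.12 for the control arrays, where 12 members are bounds.

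The 24 members lower in PC3 were next set against the DU145 control, to place the knocked-down level. In PC3-shESS2, 12 of them were still at least 2-fold above DU145-shC, 5 of these as bounds, among them OAS3 (5.67-fold), SP110 (3.46-fold), IFI6 (2.99-fold) and PLSCR1 (2.44-fold). A further 10 lay within 2-fold of DU145-shC, among them MX1 (1.39-fold higher), IFI35 (1.01-fold lower) and ADAR (1.54-fold lower). None lay more than 2-fold below it, and UBA7 and XAF1 were not placed, as both were dim in DU145 and close to background in PC3-shESS2. In settings chosen after seeing the data, the number still 2-fold above DU145-shC was 7 with the authors' scaling, 9 with normexp, 11 with quantile normalization or the mean of the probes, and 13 with dim spots at their plain signal, which placed XAF1 among them. With quantile normalization 1 member, ADAR, lay more than 2-fold below it. The comparisons share arrays, so the order of members in one is not independent of the order in another.

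In DU145, 35 members were compared and 32 of them lay within 2-fold. OAS3 and DDX60L were lower by 2-fold or more (5.71% of the members), against 2.47% of all 16842 genes, and GBP2 was higher (2.86%), against 2.36%. The median log2 ratio was -0.11 over the members and -0.02 over all genes. With normexp background correction OAS3, DDX60L and GBP2 all came within 2-fold, at -0.59, -0.41 and 0.63, and with the mean over its probes OAS3 gave -0.62. Several genes lay just inside 2-fold, namely IFI44 (0.95), ISG15 (0.94), MX1 (-0.93) and IFI6 (0.85). The number of members lower was 22 (62.9%, against 52.8% of all genes) and the number higher was 13. Other scalings turned IFI35 and PLSCR1, normexp turned GBP3, and the mean of the probes turned PML, GBP3, SHISA5 and CMTR1. The log2 ratio of ESS2 itself was lower in DU145 than in PC3, from 1 probe and 1 array per condition. The relation of ESS2 mRNA to the counts of members was not tested. In DU145, 13 members gave no ratio, and fewer of all genes were past 2-fold than in PC3.

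Across the lines, 35 members were compared in both, and these comparisons share no array. Of these, 18 were lower in both lines, 12 went opposite ways, and 5 were higher in both, namely ISG15, HERC5, DDX60, IFI44 and GBP3, the last of which turned in DU145 with normexp and with the mean of the probes. The sign was thus shared by 65.7% of these members, against 57.3% of 14686 genes. The size of the log2 ratio was larger in PC3 for 28 of the 35, and the same count over all genes was not taken. Ratios were also wider in PC3 over all genes compared, with 3.87% lower and 3.88% higher by 2-fold or more. In DU145 these shares were 2.47% and 2.36%. Pearson's r between the lines was 0.16 and Spearman's rho was 0.12 over the 35 members, beside 0.15 and 0.17 over 14686 genes, as a description only. One model over all 4 arrays with the line as a block (limma, 17126 genes, 1 residual degree of freedom) called 0.0% of all genes and 0 of the 46 members tested at an adjusted p of 0.05. The smallest adjusted p of a member was 0.746 with limma. At an unadjusted p under 0.05 limma listed 1047 genes and 6 members, namely MX1, OAS3, TRIM14 and TRIM25, which were lower, and DDX60 and IFI44, which were higher. For these the log2 coefficient shared by the lines was -2.12 ± 0.64 (SE) for MX1, -1.55 ± 0.29 for OAS3 and 0.91 ± 0.21 for DDX60.

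The core of the response element was set against the response in PC3. It was present in 9 of the 18 promoters of members that were lower by 2-fold or more, in 8 of 17 within 2-fold, and in each of the 3 that were higher. The gamma-activated site TTCNNNGAA, read on both strands, was present in 6 of the 39 member promoters (15.4%) and in 7.88% of all promoters. It stood in OAS1, IFI35 and PLSCR1 among the lower members, in DDX60 among the higher ones and in GBP3 and EPSTI1. The table held no promoter for 9 members, namely MX2, OAS2, UBA7, USP18, TRIM22, PML, GBP2, APOL1 and APOL2.

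Members that lie beside each other on a chromosome (at most 1 other protein-coding gene between them) formed 8 groups with 18 members. The MX pair on chromosome 21 and the 3 OAS genes on chromosome 12 went the same way in PC3, with log2 ratios from -3.75 to -3.32 and from -2.40 to -1.99. On chromosome 1, IFI44L was lower at -3.81 and its neighbour IFI44 was higher at 1.05. On chromosome 4, HERC5 stood at 2.25 beside HERC6 at -0.16, and DDX60 at 1.12 beside DDX60L at 0.13. In the GBP group on chromosome 1, GBP2 at -1.58 stood apart from GBP1 (-0.23) and GBP3 (0.19).

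**Figure D4:**
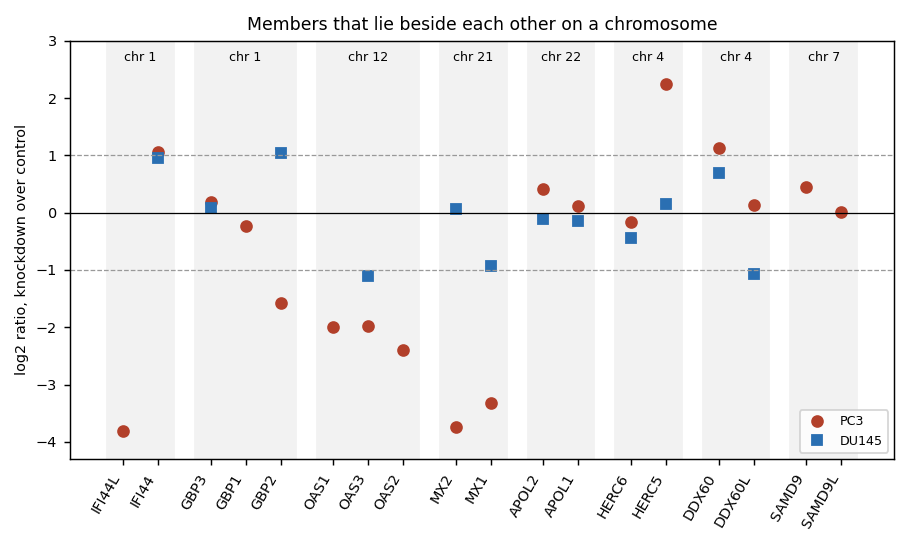
Log2 ratio of ESS2 knockdown over control (y axis, 1 array each) for members that lie beside each other, shaded by group with the chromosome above it; circles are PC3 and squares DU145. The OAS and MX groups lie together below the dashed line at 2-fold in PC3, while IFI44L and IFI44 lie on opposite sides of 0 at -3.81 and 1.05.

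Other genes of the pathway were counted on the same arrays, from lists that hold none of the members. They are read against the share of all genes past 2-fold, 3.87% lower and 3.88% higher in PC3 and 2.47% lower and 2.36% higher in DU145. Of 10 interferon ligands, 5 could be compared in PC3. Only IFNL1 and IFNL2 were measured on both arrays, and both were higher in PC3-shESS2 by 2-fold or more. The other 3, IFNB1, IFNE and IFNL3, were well above background on PC3-shESS2 alone, which fixed their direction, and are bounds. IFNL1, a type III interferon, read 15.6, 402, 4.66 and 3.49, a log2 ratio of 4.55 in PC3. IFNL2 read 64.9, 1060, 20.4 and 21.6, with 3.89 in PC3 and 0.04 in DU145, and as its sequence is nearly that of IFNL3 the probes of the pair may not tell them apart. IFNB1, the first type I interferon a cell makes, read 6.56 (not well above background) and 130 in PC3, at least 13.2-fold higher. In DU145 it was not well above background on either array, and 0 of the 2 ligands compared there were past 2-fold.

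Of 18 receptor, JAK, STAT and IRF genes, 5 were lower in PC3 by 2-fold or more (27.8%, against 3.87% of all genes) and 1 was higher (5.56%, against 3.88%). Within the complex that binds the response element, IRF9 read 1160, 191, 153 and 171, a log2 ratio of -2.74 in PC3, and STAT2 lay within 2-fold at -0.97. IRF7, which amplifies the interferon response, read 25300, 6490, 932 and 1090, with -2.10, and IFNGR1, a receptor chain of interferon gamma, gave -1.21. IRF2 gave a bound of -1.39, and JAK2 was higher at 1.46. The receptor chains of type I interferon, IFNAR1 and IFNAR2, lay within 2-fold at -0.09 and -0.46, and in DU145 none of the 17 genes of this list was past 2-fold. Of 9 nucleic acid sensors and their kinases compared in PC3, the RNA sensor TLR3 (-1.41) and the kinase IKBKE (-1.91) were lower, and RIGI and IFIH1 lay within 2-fold at 0.66 and 0.08. In DU145, IFIH1 (-1.22) and IKBKE (-1.03) were lower and STING1 (1.69) was higher.

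A list of 10 genes was built around targets of IRF3, the factor that virus infection activates. Of these, 7 were higher by 2-fold or more in PC3, against 3.88% of all genes, and 1 was lower, against 3.87%, with a median log2 ratio of 2.40. The chemokine CCL5 read 34.6, 2150, 4.43 and 9.04, a log2 ratio of 5.82 in PC3. RSAD2 (viperin), an inhibitor of virus budding, read 212 and 5600 in PC3, a log2 ratio of 4.58. OASL read 5020, 33600, 164 and 770, with 2.60 in PC3 and 2.19 in DU145, the reverse of its relatives OAS1, OAS2 and OAS3 in PC3. IFIT2, ISG20, CXCL10 and CXCL11 were also higher in PC3, at 2.17, 2.80, 2.21 and 2.89, IFIT5 was lower at -1.12, and IFIT1 and IFIT3 lay within 2-fold at -0.05 and 0.70. In DU145, 4 of the 7 compared were higher (57.1%, against 2.36% of all genes), namely OASL, IFIT2 (1.83), IFIT3 (1.74) and IFIT1 (1.29). The difference between this list and the members was not tested.

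A further 24 interferon-stimulated genes outside the 48 were compared in PC3, with 11 lower by 2-fold or more (45.8%, against 3.87% of all genes), 1 higher (4.17%, against 3.88%) and a median of -0.75. IFITM1, a membrane protein that hinders virus entry, read 30100, 1020, 73.0 and 284, with -5.02 in PC3 and 1.92 in DU145. BST2 (tetherin), which holds budding virus at the cell surface, read 5040 and 396 in PC3, a log2 ratio of -3.81. IFITM2 and IFITM3 were likewise lower in PC3 at -1.74 and -1.82 and higher in DU145 at 1.81 and 1.93, and the 3 IFITM genes are similar enough in sequence that their probes may share signal. The antigen-processing genes PSMB8 (-1.78) and PSMB9 (-1.17) and the ADP-ribosyltransferase genes PARP9 (-2.32), PARP10 (-2.78) and PARP14 (-1.23) were also lower, with DTX3L (-1.67) and SAMHD1 (-1.20), whereas ZC3HAV1 was higher at 1.09. In DU145, 3 of the 23 compared were higher, all of them IFITM genes, and PSMB9 was lower at -1.04.

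**Figure D5:**
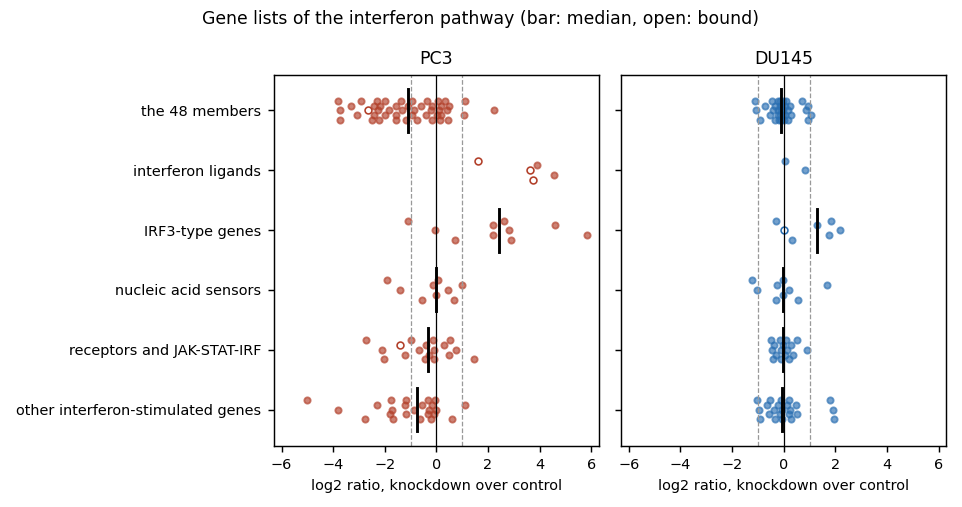
Log2 ratio of ESS2 knockdown over control (x axis, 1 array each) for the members and 5 further lists, PC3 on the left and DU145 on the right; points are genes, open points are bounds and the bar is the median of a list, not drawn for the ligands. In PC3 the medians lie at -1.10 for the members and 2.40 for the IRF3-type genes; in DU145 that of the members lies at -0.11.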

How the data were processed

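Total RNA (0.1 µg per array) of PC3 and DU145 cells with a control or an ESS2 shRNA was hybridised to 4 one-colour Cy3 Agilent arrays, 1 per condition. The authors deposited the scanner output, whose intensity values had been background-subtracted by Agilent Feature Extraction 12.1.0.3 (PC3) and 12.0.3.1 (DU145) and not scaled between arrays. A deposited table of the authors' scaled intensity values equals the processed signal times a constant for each array. Outlier and control spots were left out, spots of a probe averaged, log2 values taken and the 75th percentile of each array subtracted. Accessions were matched to a RefSeq table of GRCh38.p14, which named 35080 of 58201 probes; IFI27 and IFNA1 found no match and are left out, and a few genes of the other lists are not reported here. The PC3 files carry a newer annotation, and 85.5% of spots share their accession between releases. The brightest probe stood for a gene (14 members have several). In PC3, 9 of 11 members with several measured probes had all of them in 1 direction, in DU145 3 of 7.

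A gene was compared where well above background on at least 1 of a pair of arrays. A value below that was raised, where it was smaller, to the array's lowest signal well above background (8.15 to 9.02), and such a ratio, its fold or log2, is a bound. A difference was called past 2-fold, with no test within a line. limma 3.58.1 (R 4.3.3) was fitted to genes well above background on 2 or more arrays, adjusted by Benjamini-Hochberg with a threshold of 0.05, and the calculations were tested on simulated data. With 1 array per condition the number of arrays limits the precision.

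The members, roles and other lists were chosen with earlier results of these data known. Signals on the arrays are given for the members past 2-fold on knockdown and for some others, by role, and the rest by their log2 ratio, and genes of the other lists are named where past 2-fold or as parts of the signalling complex, receptors, sensors or list described. The alternatives were median scaling, quantile normalization, the authors' values, normexp with an offset of 50 (on the median spot signal, which stood in for the mean), stricter and no filters, dim spots at their plain signal, the mean of the probes, each probe alone, outlier spots kept, and for limma no block and each array left out.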

Additional observations from a re-analysis of the deposited data

Results flagged for a closer look

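For 4 members measured on all 4 arrays the knockdown ratio had opposite signs in PC3 and DU145, each by more than 3 times the median SD between spots of a probe. That SD covers the array surface and not the cells, and at its 95th percentile (0.132 in PC3 and 0.125 in DU145) HELZ2 and TRIM5 would not pass in DU145. The log2 ratio of IFI6 was -3.72 in PC3 and 0.85 in DU145, that of GBP2 was -1.58 and 1.04, that of HELZ2 was -1.84 and 0.29, and that of TRIM5 was -0.42 and 0.26. The difference between the lines was not tested, as each condition has 1 array.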

How the results depend on the processing

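The number of members lower by 2-fold or more in PC3 ran from 22 to 26 over the alternatives and the number higher from 2 to 3, and in the control comparison 27 to 44 were higher in PC3 and 0 lower. In DU145 the counts were small and moved. With normexp background correction 0 members were past 2-fold, 0 of them lower and 0 higher, with the mean of a gene's probes 1 was lower, and with quantile normalization 2 were higher. In PC3, calls were lost for IFI44 with median scaling (0.95), for PML with quantile normalization (-0.98), for HELZ2 with either dim probe, and with normexp for UBA7 (-0.77), XAF1 (-0.82) and DDX60 (0.998); the cause was not tested. No knockdown ratio past 2-fold changed sign, but CMTR1 in the control comparison did with its other probe (-0.77 in place of 1.24). Scaling moved all genes together. The median over all genes in the control comparison was 0.12 here, 0.58 with median scaling and -0.33 with the authors' scaling, and the genes lower and higher by 2-fold were 3480 and 3863, 2371 and 6133, and 5159 and 2399. In PC3 they were 649 and 650, 803 and 511 with median scaling and 535 and 792 with the authors' scaling, and with normexp 323 and 248, while in DU145 normexp gave 77 and 139 in place of 416 and 397. limma called 0 members in every alternative, and with no filter on dim genes the smallest adjusted p was 0.053. With an array left out, which was done without the block as no residual degree of freedom would be left, 0 members passed in each case and 0 to 10 had an unadjusted p under 0.05. No paired analysis was possible because each condition has 1 array, beyond the block for the line in the fit itself; without that block limma called 0 members.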
